A study of Mus musculus with 9 samples.

Results

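The Schlafen genes form a family clustered on mouse chromosome 11. The 7 members described here (Slfn1, Slfn2, Slfn3, Slfn4, Slfn5, Slfn8, and Slfn9) are a list of names in a table of 24341 genes, of which 24326 had a value in every mouse. RNA came from the whole livers of wild-type (WT) C57BL/6 mice, 48 hours after the CD40 agonist antibody FGK45 (anti-CD40, 3 mice, numbered 2, 5, and 9) or after PBS (control, 6 mice, numbered 3, 4, 7, 8, 11, and 12). The labels give no age for these mice, and per the study's general methods mice in which anti-CD40 did not lower circulating B cells could be excluded. The comparison asks how the family's transcripts in the liver differed between mice given anti-CD40 and control mice. Libraries were made from the 3′ end of mRNA, and expression is given as FPKM, a fragment count scaled by transcript length and by the mapped reads of the library. Per the study, the mice came from 1 experiment.

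Schlafen proteins take their name from the German verb for sleeping, because the first ones described slowed the growth of T cells when overproduced. Short members (Slfn1 and Slfn2) hold little more than the core domain of the family, intermediate members (Slfn3 and Slfn4) carry a further domain, and long members (Slfn5, Slfn8, and Slfn9) end in a helicase-like domain. Several members are induced by type I interferon in immune cells, and members of the family act on transfer RNA, on cell quiescence, and against viruses.

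The cluster spans 303.9 kb of mm10 in the table, from 82911253 to 83215154 on chromosome 11. On the forward strand it holds Slfn5 (GENCODE gene 82951349 to 82964840), Slfn2 (83065112 to 83070678), Slfn1 (83116845 to 83122659), Slfn4 (83175186 to 83190216), and Slfn3 (83191330 to 83215154). On the reverse strand it holds Slfn9 (82980303 to 82991830) and Slfn8 (83002158 to 83020810), with the transcribed pseudogene Slfn10-ps between Slfn8 and Slfn2 (83028126 to 83040533). All 7 members are annotated as protein coding. The table gives Slfn5 the same merged position as Unc45b and the antisense gene Slfn5os, and it gives Slfn9 that of Mir7679. The span therefore starts where the merged position of Slfn5 starts, before its GENCODE start. Distances from the start of the cluster are counted from there.

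Promoter windows from 250 bases before to 50 bases after the RefSeq start (GRCm38.p6) were matched for all 7 members. The stretches shown here, in the direction of each gene, hold letters or a pattern found in several members, and none was common to all 7. Their part in the expression changes described further on was not tested. In the first 4, capitals mark ACTTCCTGG, letters of the kind bound by ETS factors. In the Slfn5, Slfn8, and Slfn9 stretches, capitals mark a match on either strand to GAAA, any 2 bases, and GAAA again, the core of the interferon-stimulated response element.
Slfn1, chr11:83116721-83116779, forward strand: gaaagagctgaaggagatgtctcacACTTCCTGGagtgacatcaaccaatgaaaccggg
Slfn2, chr11:83065032-83065090, forward strand: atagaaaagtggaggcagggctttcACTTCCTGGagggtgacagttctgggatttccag
Slfn3, chr11:83191263-83191321, forward strand: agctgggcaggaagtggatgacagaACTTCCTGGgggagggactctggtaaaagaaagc
Slfn4, chr11:83175088-83175146, forward strand: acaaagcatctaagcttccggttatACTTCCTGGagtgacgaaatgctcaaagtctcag
Slfn5, chr11:82951922-82951981, forward strand: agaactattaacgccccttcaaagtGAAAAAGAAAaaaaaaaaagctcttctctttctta
Slfn8, chr11:83020824-83020883, reverse strand: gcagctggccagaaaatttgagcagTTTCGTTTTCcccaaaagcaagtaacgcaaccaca
Slfn9, chr11:82991841-82991900, reverse strand: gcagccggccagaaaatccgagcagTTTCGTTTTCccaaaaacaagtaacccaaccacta

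ACTTCCTGG, searched on both strands, was in the windows of 4 of 7 members, Slfn1, Slfn2, Slfn3, and Slfn4, and in 0.843% of all 32851 promoter windows of 300 bases. These letters were picked after the members' sequences had been read. Their first base lay 74 bases before the start of Slfn1, 55 before that of Slfn2, 42 before that of Slfn3, and 73 before that of Slfn4, which are the 4 neighbouring forward-strand genes of the short and intermediate groups.

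The interferon-stimulated response element core was in the windows of 3 members, all of the long group, and in 3.44% of all windows. The match in Slfn8 and Slfn9 was the same run, TTTCGTTTTC, 48 and 45 bases before the start. Slfn8 had another RefSeq start, with the run 136 bases before it, and only the window of the nearer start was used for the stretch and for identity. The run, picked from the members' own sequences, was in 0.0944% of all windows. The Slfn8 and Slfn9 windows were identical at 80.8% of aligned positions (252 of 312), whereas the next most alike pair of members, Slfn1 and Slfn8, reached 53.0%. Of the other letters searched on both strands, TTCNNNGAA (the gamma interferon-activated site) was in no member's window and in 8.30% of all windows. GGGA and TTCC with any 2 bases between them (NF-κB) was in no member's window and in 1.47% of all. Other spacings were not searched, and the Slfn2 stretch shown holds gggatttcc, where GGGA and TTCC lie closer together. TGANTCA (AP-1) was in the window of Slfn4 and in 7.81% of all. A match describes the letters of these windows and no binding was measured.

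In 2 libraries, markers of other cells stood apart. Pancreatic acinar markers summed to 299 FPKM in anti-CD40 mouse 5, against 0.453 in mouse 2 and 2.07 in mouse 9, and erythroid markers summed to 26069 FPKM in control mouse 4, against 4188 to 7429 in the other control mice. Without mouse 5, the log2 fold changes of the members ran from 0.88 for Slfn9 to 3.82 for Slfn4. Without mouse 4, they ran from 1.11 for Slfn9 to 3.97 for Slfn4, and all 7 members were called higher by limma in both fits.

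All 7 Schlafen genes were higher in the livers of anti-CD40 mice than in those of control mice. Slfn4, an interferon-responsive gene of myeloid cells, and Slfn1 had the largest increases on the log2(FPKM + 0.1) scale. Slfn2, required for quiescence of T cells and monocytes, had the highest FPKM of the members after anti-CD40. The summed FPKM of the members was 72.0 to 99.4 in anti-CD40 mice and 12.4 to 18.7 in control mice. Every member was called higher by limma (adjusted p under 0.05 over the 13807 genes whose FPKM averaged 0.1 or more). Over all genes tested, 23.5% were called higher, 21.7% lower, and 45.1% in either direction. The groups did not overlap for any member, with anti-CD40 mice higher, which was so for 22.7% of all genes tested. The median log2 fold change of the members was 2.27, against 0.0056 over all genes tested.

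Slfn3, Slfn4, and Slfn9 had control means under 0.1 FPKM and passed the filter on low values only through the anti-CD40 mice, so the count of 7 gives no separate support for these 3. In the fit with no filter, 7 of 7 members were called higher, as were 12.9% of all 24326 genes. Because whole liver was sequenced, a change in the number of cells that hold a transcript and a change in the transcript per cell cannot be told apart.

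Slfn1, which halts the cell cycle of thymocytes when overexpressed, was at 4.01, 3.66, and 3.62 FPKM in anti-CD40 mice 2, 5, and 9. In the 6 control mice its lowest value was 0.0587 FPKM, its median 0.197, and its highest 0.467. The anti-CD40 mice were close to each other and all far above the control mice, which spread widely among themselves. The means were 3.76 ± 0.219 (SD, n = 3) and 0.211 ± 0.146 FPKM (SD, n = 6), a log2 fold change of 3.76 with a standard error of 0.35 (limma, adjusted p = 1.64e-05).

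Slfn2 was at 58.7, 67.0, and 42.0 FPKM in anti-CD40 mice 2, 5, and 9. Its values in control mice had a lowest of 4.99, a median of 6.09, and a highest of 8.90 FPKM. The lowest anti-CD40 mouse, 9, still stood well above the highest control mouse, 4. The means were 55.9 ± 12.7 (SD, n = 3) and 6.55 ± 1.65 FPKM (SD, n = 6), a log2 fold change of 3.09 with a standard error of 0.22 (limma, adjusted p = 3.37e-06).

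Slfn3, an intermediate member, was at 0.336, 0.268, and 0.192 FPKM in anti-CD40 mice 2, 5, and 9. In 4 of the 6 control mice it was listed at the floor of the table, 0.01 FPKM, and the highest control value was 0.0364. It was low in every mouse, and the groups did not overlap. The log2 fold change was 1.62 with a standard error of 0.22 (limma, adjusted p = 2.00e-04), and its mean over all mice, 0.1002 FPKM, lay just over the filter.

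Slfn4 was at 2.36, 1.92, and 1.15 FPKM in anti-CD40 mice 2, 5, and 9. Its lowest control value was 0.0142 FPKM, its median 0.0155, and its highest 0.0659. The transcript was scarce in control liver, with mouse 4 above the other control mice, and all anti-CD40 mice were far higher. The means were 1.81 ± 0.611 (SD, n = 3) and 0.0253 ± 0.0204 FPKM (SD, n = 6), a log2 fold change of 3.89 with a standard error of 0.25 (limma, adjusted p = 1.86e-06).

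Slfn5, a long member found in the nucleus, was at 31.1, 22.0, and 22.8 FPKM in anti-CD40 mice 2, 5, and 9. The control mice had a lowest value of 6.65, a median of 8.77, and a highest of 9.54 FPKM. It had the highest FPKM of the members in each control mouse, and its control values were the tightest in proportion to their mean. The means were 25.3 ± 5.02 (SD, n = 3) and 8.33 ± 1.16 FPKM (SD, n = 6), a log2 fold change of 1.59 with a standard error of 0.16 (limma, adjusted p = 2.54e-05). Unc45b, a myosin chaperone gene that shares the merged position, changed by -0.14 on the log2 scale (limma, adjusted p = 0.591).

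Slfn8, another long member, was at 2.58, 2.93, and 2.06 FPKM in anti-CD40 mice 2, 5, and 9. Its lowest control value was 0.250 FPKM, its median 0.462, and its highest 0.699. The groups did not overlap, and the control mice varied more among themselves, in proportion to their mean, than the anti-CD40 mice. The means were 2.52 ± 0.441 (SD, n = 3) and 0.464 ± 0.178 FPKM (SD, n = 6), a log2 fold change of 2.27 with a standard error of 0.28 (limma, adjusted p = 9.53e-05).

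Slfn9 was at 0.296, 0.446, and 0.197 FPKM in anti-CD40 mice 2, 5, and 9. Its lowest control value was 0.0430 FPKM, its median 0.0946, and its highest 0.119. The lowest anti-CD40 mouse, 9, stood 1.66 times above the highest control mouse, 7, the narrowest such gap of the family. On the log2(FPKM + 0.1) scale its increase was the smallest, whereas by the ratio of means that of Slfn5 was smaller (3.04 against 3.56). The means were 0.313 ± 0.125 (SD, n = 3) and 0.0880 ± 0.0260 FPKM (SD, n = 6), a log2 fold change of 1.10 with a standard error of 0.24 (limma, adjusted p = 0.00406).

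**Figure D1:**
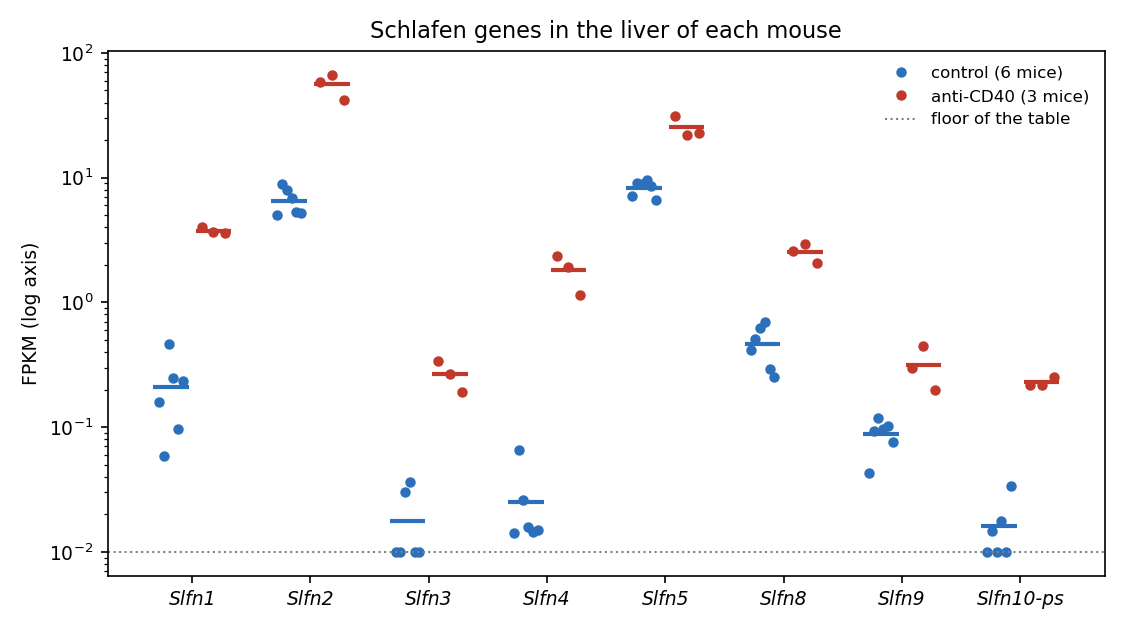
FPKM on a log axis of the 7 Schlafen members and the pseudogene Slfn10-ps in each mouse, with control mice in blue, anti-CD40 mice in red, horizontal lines at the group means, and the table's floor of 0.01 dotted. No control point reaches the anti-CD40 points of its gene, and the narrowest gap is that of Slfn9, from 0.119 to 0.197 FPKM.

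An exact permutation test over the 84 ways of splitting the mice into 3 and 6 gave a 2-sided p of 0.0238 for each of the 7 members, the smallest it can give. By log2 fold change among the 13807 genes tested, Slfn4 ranked 113, Slfn1 127, Slfn2 253, Slfn8 583, Slfn3 1106, Slfn5 1137, and Slfn9 1803. The pseudocount of 0.1 holds back the change of low genes, so the order of the members on this scale depends on it. With a pseudocount of 1, Slfn2 had the largest log2 fold change, 2.92, and Slfn4 fell back to 1.43. With a pseudocount of 0.01, Slfn4 led with 5.77, and Slfn3 reached 3.38.

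**Figure D2:**
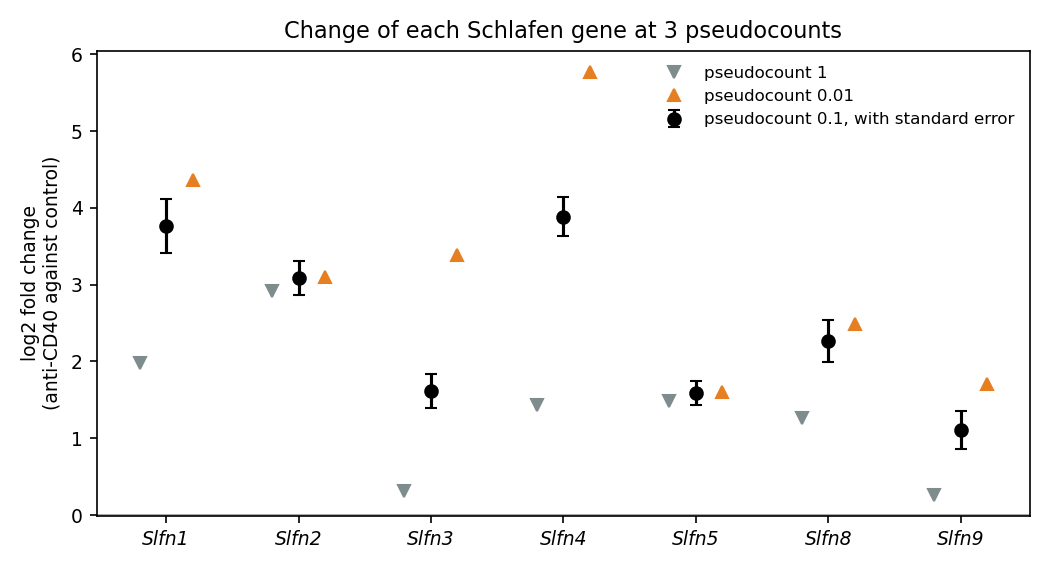
Log2 fold change (anti-CD40 against control) of each Schlafen gene, with black points and bars for the value and its standard error at a pseudocount of 0.1 FPKM, grey triangles at 1, and orange triangles at 0.01. Slfn2 and Slfn5 hardly move with the pseudocount, while Slfn4 runs from 1.43 to 5.77 and Slfn3 from 0.31 to 3.38.

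Ratios free of a pseudocount came from the reads behind the values. The FPKM of a low gene were treated as whole multiples of what 1 read is worth. That worth was estimated for each mouse from 1332 genes of these same data whose values came out whole. With it, the values of 84.4% of 2537 low genes were whole reads within 0.05, which describes the fit and is no separate check. The relative depth of the libraries ran from 0.870 to 1.13. Reads are the fewest that account for the values, and the intervals cover counting error alone.

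Slfn4 had 192, 147, and 82 reads in anti-CD40 mice 2, 5, and 9, against 5 in control mouse 4 and 1 or 2 in each of the other control mice. Per unit of depth this was a ratio of 70.2 (95% exact interval, 38.8 to 142), the highest of the members with solved reads. Slfn3 had 12, 9, and 6 reads against 2 in all control mice together, a ratio of 24.7 with a wide interval of 6.22 to 215. The intermediate members were thus nearly unread in control liver.

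Slfn1 had 147, 126, and 116 reads against 2 to 16 in control mice, a ratio of 17.8 (12.9 to 25.3). Slfn2 had 1898, 2039, and 1191 reads against 137 to 268, a ratio of 8.52 (7.98 to 9.10). Slfn9 had 24, 34, and 14 reads against 3 to 9, a ratio of 3.57 (2.37 to 5.46). No whole reads were solved for Slfn8 and Slfn5, whose ratios of mean FPKM were 5.43 and 3.04.

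The members did not change by the same amount. Of the 21 pairs of members, the within-mouse difference on the log2(FPKM + 0.1) scale did not overlap between groups in 16, each with an exact permutation p of 0.0238 (0.0313 adjusted over the 21 pairs). In 7 of these pairs the groups were also apart in the same direction with pseudocounts of 1 and 0.01. Among them, Slfn4 rose more than Slfn9, Slfn1 rose more than Slfn8 and Slfn9, and Slfn2 rose more than Slfn5, Slfn8, and Slfn9. The remaining pair was Slfn4 with Slfn3, where the floor in 4 control mice holds back the change of Slfn3 and the read interval of Slfn3 (6.22 to 215) contains the ratio of Slfn4, so that a larger rise of Slfn4 was not shown. In 9 of the 21 pairs the difference changed sign with the pseudocount, and in 3 of these, Slfn4 with Slfn2, Slfn8 with Slfn3, and Slfn3 with Slfn5, the groups were apart in opposite directions. Slfn4 and Slfn1 differed in log2 fold change by 0.13 (exact permutation p = 0.786), by -0.55 with a pseudocount of 1 (exact permutation p = 0.0238), and by 1.40 with 0.01 (exact permutation p = 0.143).

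Slfn2 and Slfn5, the members with the highest FPKM, exchanged places on that scale. In control mice Slfn5 had the higher FPKM in 6 of 6, with a Slfn2 to Slfn5 ratio of 0.611 to 0.978. In anti-CD40 mice Slfn2 was higher in 3 of 3, with a ratio of 1.85 to 3.04. The log2 fold changes differed by 1.50 (exact permutation p = 0.0238, 0.0313 adjusted over 21 pairs). Below them, the order by FPKM was Slfn1, Slfn8, and Slfn4 in all anti-CD40 mice, while Slfn8 came next in all control mice. In 3′ libraries reads do not grow with transcript length, so the division by length in FPKM can shift levels between genes. The division cancels in the change of each gene between mice. The longest transcript was 1664 bases for Slfn2 and 5979 for Slfn5, so which of them had more transcripts in any mouse is not shown.

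**Figure D3:**
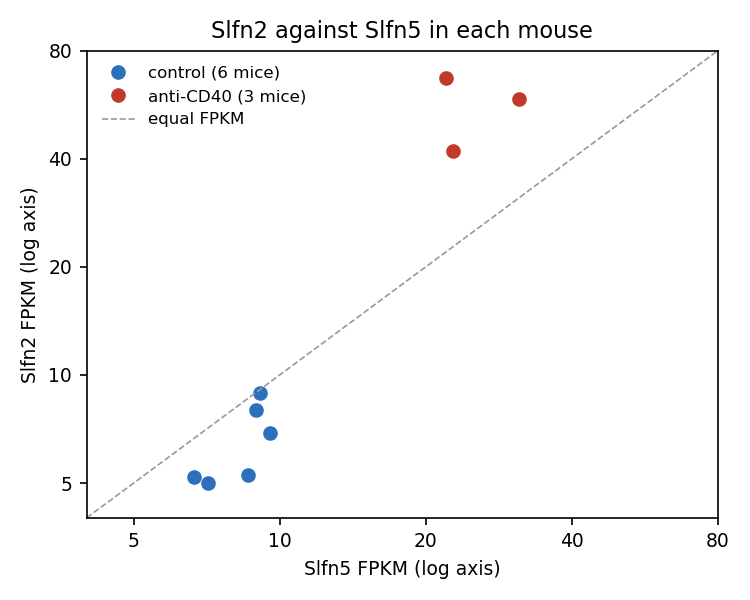
Slfn2 FPKM against Slfn5 FPKM, both on log axes, with 1 point per mouse, control in blue and anti-CD40 in red, and equal FPKM dashed. All 6 control mice lie under the line (ratios of 0.611 to 0.978) and all 3 anti-CD40 mice above it (1.85 to 3.04).

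After the group means were removed, 20 of the 21 correlations between members over the 9 mice were positive, with a median of 0.53. The highest were 0.75 for Slfn2 with Slfn4 and 0.75 for Slfn2 with Slfn8, and the negative one was -0.19 for Slfn1 with Slfn4, which have few reads in control mice. These are descriptions of 9 libraries. Correlations of other gene pairs were not computed, so the count is not shown to be particular to the family. In control mouse 4, Slfn2 was at its highest control value and Slfn4 had 5 reads, while Slfn1 was at its lowest with 2 reads.

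Other genes named for the family were also read. The pseudogene Slfn10-ps was at 0.219, 0.218, and 0.250 FPKM in anti-CD40 mice 2, 5, and 9 and at 0.01 to 0.0336 in control mice. These were 16, 15, and 16 reads against 4 in all control mice together, a ratio of 21.5 (7.88 to 82.3), and the exact permutation p was 0.0238. Its mean of 0.0870 FPKM lay just under the filter, so limma did not test it. Slfn14, a long member known from platelets and red cell precursors, had 3 reads in anti-CD40 mice and 5 in control mice, too few to show a difference (ratio 1.10, 0.171 to 5.65). Slfnl1, a Schlafen-like gene on chromosome 4, was at the floor in every mouse, and the antisense gene Slfn5os had 1 read in each group.

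Members with near-identical stretches are less certain as separate values. Of the 50-base words in the longest transcript, 15.4% of those of Slfn8 and 11.2% of those of Slfn9 were also in another Schlafen transcript, mostly Slfn10-ps. In the last 500 bases, where 3′ reads fall, Slfn3 shared 20.6% of its words and Slfn8 3.10%, while Slfn1, Slfn2, Slfn4, Slfn5, and Slfn9 shared none. Slfn4 transcripts held the shared words of Slfn3, 7.97% of all its words. Whether reads of Slfn4 were counted for Slfn3 was not tested. The pseudogene Slfn10-ps shared 19.7% of all its words and 17.5% of those in its last 500 bases, so its reads are uncertain as well. How the authors' counting assigned reads that fit several genes is not given in the sources used here.

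The genes around the cluster were a mixture. Of 35 other genes within 500 kb, 23 were tested, and 8 were higher, 3 lower, and 12 not called, so that 34.8% were higher and 47.8% called, against 23.5% higher and 45.1% called over all genes. AI662270, a noncoding transcript just beyond Slfn3, rose from 10.9 ± 3.19 (SD, n = 6) to 49.2 ± 5.34 FPKM (SD, n = 3), a log2 fold change of 2.21 (limma, adjusted p = 2.73e-05). Of the chemokine genes at the far end, whose products attract leukocytes, 4 were higher, with log2 fold changes of 3.94 for Ccl3, 3.85 for Ccl4, 3.85 for Ccl5, and 1.45 for Ccl6. Ccl9, in the same run of chemokine genes, was not called (log2 fold change 0.26, limma, adjusted p = 0.311).

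The other increases around the cluster were smaller. Lig3, a DNA ligase gene, rose by 0.71, Nle1, a ribosome assembly gene, by 0.88, and Ap2b1, an adaptor of clathrin coats, by 0.52 on the log2 scale. AA465934 (-1.16), Taf15 (-0.51), and Wfdc17 (-0.85) were lower. Unc45b, at the merged position of Slfn5, and Rad51d, on the far side of Nle1, were not called.

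**Figure D4:**
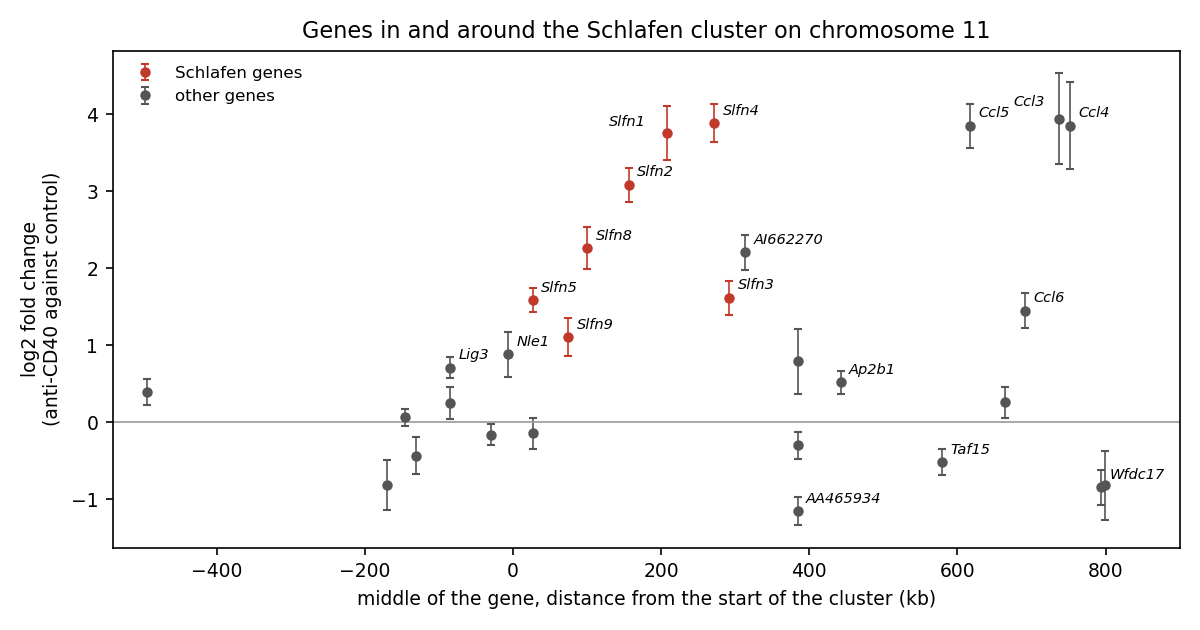
Log2 fold change with its standard error of the tested genes within 500 kb of the cluster, by the distance in kb of the gene's middle from the start of the cluster, with Schlafen members in red, other genes in grey, and names on the genes called by limma. The members lie between 1.10 and 3.89, and of the other genes named, Ccl3, Ccl4, and Ccl5 at the right reach 3.85 to 3.94 (Snord7, which was not called at -4.88 with a standard error of 2.67, lies off the plot).

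The patterns most like each member over the 9 mice, by Pearson's r of log2(FPKM + 0.1), belonged to genes that also rose. Nearest to Slfn4 were Olr1 (r = 0.997), a receptor for oxidized LDL, and Clec4e (r = 0.996), the receptor Mincle of myeloid cells. Nearest to Slfn2 were Rftn1 (r = 0.995), a lipid raft protein gene, and Procr (r = 0.994), the protein C receptor, and nearest to Slfn1 were Agap2 (r = 0.995) and Myo9b (r = 0.994).

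For Slfn3 they were Ncapg (r = 0.997), a condensin subunit of dividing cells, and Upp1 (r = 0.996), a uridine phosphorylase. For Slfn5 they were 1700112E06Rik and the adaptor gene Dapp1 (r = 0.995 each), and for Slfn8 the amino acid transporter gene Slc7a7 (r = 0.990) and Phf11d (r = 0.988). Slfn9 stood apart, with lower values for its nearest genes, Plekho1 (r = 0.970) and Oas1a (r = 0.962), and 20 genes over 0.95 where the other members had 335 to 841. With groups this far apart, any gene that separates them reaches a high r.

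Interferon, the best known inducer of the family, was examined through its signalling genes and other induced antiviral genes. Of 17 interferon signalling genes tested (19 listed), 13 were higher, 0 lower, and 4 not called (Ifnar1, Tyk2, Irf1, and Irf2), with a median log2 fold change of 0.85. The largest were Socs1 (2.69), a feedback inhibitor, and Irf8 (2.23), a transcription factor of myeloid cells. The interferon genes Ifnb1 and Ifng fell under the filter, with Ifng at 0.01 to 0.0958 FPKM in anti-CD40 mice and 0.01 to 0.194 in control mice.

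All 14 of 14 other interferon-induced antiviral genes listed were higher, with a median of 1.52. The largest were Oasl2 (2.51), of the oligoadenylate synthetase family, and Ifit2 (2.26), which binds viral RNA. The members' median of 2.27 was above both list medians and the medians were not compared by a test. The members' changes depend on the pseudocount, and with a pseudocount of 1 they ran from 0.27 for Slfn9 to 2.92 for Slfn2. They were not compared with list medians at that pseudocount, so the order of the medians is not shown to hold there. Slfn3, Slfn4, and Slfn9 also passed the filter only through the anti-CD40 mice, which was so for no gene of either list.

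Most tested markers of leukocytes other than Kupffer cells were higher after anti-CD40. Of 13 neutrophil markers listed, 10 were tested and 10 were higher, with a summed level of 4231 to 5221 FPKM in anti-CD40 mice and 19.3 to 157 in control mice. Monocyte or macrophage markers were higher in 6 of 10 and lower in 1 (330.2 to 447.5 against 65.9 to 100.2 FPKM), among them Chil3 (log2 fold change 7.88) and Ly6c2 (5.61), genes of inflammatory myeloid cells. Markers of T cells (7 of 8), NK cells (4 of 4), B cells (5 of 5), and dendritic cells (4 of 5) were higher too. Some of these passed the filter only through the anti-CD40 mice, namely Ngp, Ltf, Cxcr2, and Mmp8 of the neutrophil markers and Chil3, Cd8a, Eomes, Cd79a, and Flt3 of the others. With no filter, the calls higher were 10 of 12 for neutrophil, 6 of 10 for monocyte or macrophage, 5 of 8 for T cell, 3 of 5 for NK cell, 5 of 6 for B cell, and 1 of 5 for dendritic cell markers.

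Kupffer cell markers fell in 6 of 6 (39.0 to 50.7 against 285 to 456 FPKM), with Clec4f at 0.01 to 0.218 FPKM after anti-CD40. Hepatocyte markers fell in 6 of 7 (4339 to 5425 against 12892 to 24959 FPKM) and Alb, the albumin gene, stayed at 774 FPKM or more in every mouse. Endothelial markers were mixed (2 higher, 2 lower, and 2 not called), stellate cell markers were lower in 3 of 5, platelet markers higher in 1 of 4, erythroid markers called in 0 of 4 with Hba-a1 at the floor in every mouse, and pancreatic acinar markers higher in 1 of 5 (0 of 5 with no filter). Among control mice, mouse 4 had the highest mean level of neutrophil, monocyte, T cell, NK cell, B cell, and dendritic cell markers. The part of these cells in the Schlafen values was not tested.

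In the libraries, between 14684 and 15545 genes were above the floor, the correlation between mice was 0.953 to 0.980 within groups and 0.897 to 0.921 between them, and the acute phase genes Saa1, Saa2, and Saa3 took 25.4% to 25.9% of summed FPKM after anti-CD40 and at most 0.380% in control mice. With these 3 genes left out and the mice rescaled, the calls over all genes went from 3240 higher and 2990 lower to 5592 higher and 1649 lower, the median log2 fold change moved from 0.0056 to 0.35, and all 7 members stayed higher.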

How the data were processed

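Livers of 9 mice, 3 given anti-CD40 and 6 given PBS, were grouped by their labels. Per the labels and the study's methods, the authors made QuantSeq 3′ libraries (forward kit), aligned reads to mm10 with STAR, and used Cufflinks and CuffDiff. The table they deposited holds 1 FPKM value per gene and mouse, never under 0.01. The annotation, the library depths, and the strand setting are not given in the sources used here.

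The 15 genes with a failed estimate were left out. The deposited FPKM were taken to log2(FPKM + 0.1) and fitted by limma (version 3.58.1, under R 4.3.3) in the 13807 genes averaging 0.1 FPKM or more (eBayes with a trend, 2-sided, Benjamini-Hochberg at 0.05). Single members and pairs were tested by the exact permutation test over samples. Reads were solved from FPKM steps as the fewest whole numbers within 0.1 in every mouse. Table starts were counted from 1. Promoters were from RefSeq (GRCm38.p6) and transcripts from GENCODE M21. Python 3.11.15, numpy 2.4.6, pandas 2.3.3, scipy 1.17.1, and matplotlib 3.10.9 did the rest, and the scripts were tested on simulated data.

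The members, gene lists, and tests were chosen with earlier results of these data known. Named were all members, other Schlafen-named genes, the 2 genes most like each member by Pearson's r, called genes within 500 kb, the 2 largest called changes of each pathway list, and uncalled genes of small counts. Unc45b, Rad51d, Snord7, Ccl9, Chil3, Ly6c2, Clec4f, Alb, and the markers with low control means were added after their values were seen. Alternatives were pseudocounts of 1 and 0.01, other filters, scalings, and variance estimates, and leaving out each mouse.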

Additional observations from a re-analysis of the deposited data

Results flagged for a closer look

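In 3 of 23 sets of 6 control values, the mouse at one end lay unusually far from the rest by Dixon's test (the gap to the nearest mouse over the whole range), where chance flags about 1 in 20. Slfn4 in control mouse 4 was at 0.0659 FPKM against 0.0262 in the next mouse, a gap of 0.768 of the range. Slfn10-ps in control mouse 12 was at 0.0336 FPKM against 0.0178, a gap of 0.671, which rests on 2 reads against 1. The erythroid marker list, as mean log2(FPKM + 0.1), was at 4.33 in control mouse 4 against 3.02, a gap of 0.649.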

How the results depend on the processing

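The 130 values of the members' log2 fold changes under 19 alternatives kept their direction and stayed under an adjusted p of 0.05 (limma), the highest being 0.0322 for Slfn9. The members called were 7 in each alternative except a filter at a mean of 1 FPKM, where 4 were called because Slfn3, Slfn4, and Slfn9 were not tested. Over all genes, 6230 calls became 3142 when a 2-fold change was also required, and 4875 to 6808 when 1 mouse was left out. Of the called genes within 500 kb, 11 became 7 at an adjusted p under 0.01 and 6 at 2-fold, with 5 within 250 kb, 19 within 1000 kb, and 8 to 13 with 1 mouse left out. Pairs of members whose groups did not overlap were 16, and 15 to 18 under the alternatives, but they were not the same pairs throughout. Of the 21 pairs, 7 were apart in the same direction at all 3 pseudocounts. The difference changed sign with the pseudocount in 9, and in 3 of these the groups were apart in opposite directions. The interferon signalling genes called higher fell from 13 to 8 at 2-fold. No paired analysis was possible because no replicate number is shared between the groups. The low reads of Slfn9 limit the size of its change more than its direction. Those of Slfn3 limit the size of its change too, and whether some of them came from Slfn4 was not tested, so its direction is less certain.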
